A study of Mus musculus with 8 samples.

Results

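Eosinophil genes were examined as 5 members on 8 arrays of mouse paw: Prg2, Prg3, Epx, Il5ra and Il5. Each was found as the row of the deposited table whose annotation holds exactly 1 gene symbol, and each had 1 such row, out of 28944 probe sets tested. The set was chosen by the values of Prg2, whose peptide effects had opposite signs with and without collagen. Its values are therefore given as a description with no test, and the question put to the other 4 was whether they share its pattern.

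Eosinophils are granulocytes that mature in bone marrow under interleukin 5, encoded by Il5, which binds a receptor made of its own alpha chain, Il5ra, and a beta chain shared with other cytokines. Their granules hold cationic proteins that are toxic to parasites and to host tissue. Prg2 encodes major basic protein, the core of the granule, Prg3 encodes a homologue of it, and Epx encodes eosinophil peroxidase. The granule protein genes are transcribed mainly while the cells mature, and chemokines such as eotaxin draw mature cells into tissue.

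RNA came from the excised paws, labelled articular tissue, of male DBA1/J mice aged 8 to 10 weeks. CIA+MLIF mice were injected with collagen II from chicken (150 µg, in complete Freund adjuvant), boosted in incomplete adjuvant 3 weeks later, and given the pentapeptide MLIF (monocyte locomotion inhibitory factor, from Entamoeba histolytica) through the nose each week from 1 week before the first injection. CIA mice (collagen-induced arthritis) had the collagen and the booster without peptide. Adjuvant+MLIF mice received complete adjuvant without collagen, the incomplete booster and weekly nasal MLIF, and adjuvant mice the same injections without peptide, so that all 4 groups carry the adjuvant. Paws were taken 4 weeks after the booster according to the labels of the samples, but before it according to the text of the series. Each group had 8 mice and is represented by 2 arrays, and the labels do not say whether an array holds 1 mouse or a pool, so the errors measure the spread between arrays.

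The number of arrays, 2 a group, limits the precision, and the errors of the changes below come from a limma fit of all 8. CIA replicate 1 stood apart, with a median log2 signal over the tested probe sets of 6.66, where the 7 others had 7.07 to 7.10. Over all tested probe sets the middle log2 change was 0.24 for CIA+MLIF minus CIA, -0.25 for CIA minus adjuvant and 0.21 for the difference between the peptide effects, and 0.03 and -0.03 for the comparisons without that group. The adjuvant+MLIF arrays were closer to each other than the arrays of any other group (SD of the difference between replicates 0.0936, against 0.207 to 0.324). The first 6613 entries of the table, numbered consecutively and without annotation, were taken to be array controls, and their median on each array (5.88 on CIA replicate 1, 6.29 to 6.44 on the others) served as a mark of low signal. In bulk paw tissue, fewer cells of a type and less RNA per cell cannot be told apart.

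RefSeq promoter windows (GRCm38.p6) were matched for 4 of the 5 members, Prg3, Epx, Il5ra and Il5. The 250 bases before the start are printed for Epx and Prg3, granule protein genes whose peptide effects had the signs of those of Prg2, and for the receptor gene Il5ra, whose effects did not. GATA factors direct eosinophil differentiation, so their recognition sequence was searched on both strands in 4 forms, as AGATAA with T also allowed as its first letter and G as its last, and each match, or its reverse complement, is in capitals. No window printed held overlapping matches.
Epx, chr11:87875537-87875786, minus strand: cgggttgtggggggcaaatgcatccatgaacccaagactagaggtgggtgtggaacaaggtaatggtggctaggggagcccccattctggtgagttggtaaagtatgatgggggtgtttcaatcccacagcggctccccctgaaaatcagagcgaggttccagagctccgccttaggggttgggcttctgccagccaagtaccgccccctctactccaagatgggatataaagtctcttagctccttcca
Prg3, chr2:84987965-84988214, plus strand: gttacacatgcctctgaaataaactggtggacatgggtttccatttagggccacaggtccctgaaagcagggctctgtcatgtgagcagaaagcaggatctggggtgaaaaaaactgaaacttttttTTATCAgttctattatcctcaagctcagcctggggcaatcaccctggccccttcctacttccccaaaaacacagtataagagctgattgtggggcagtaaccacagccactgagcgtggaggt
Il5ra, chr6:106749038-106749287, minus strand: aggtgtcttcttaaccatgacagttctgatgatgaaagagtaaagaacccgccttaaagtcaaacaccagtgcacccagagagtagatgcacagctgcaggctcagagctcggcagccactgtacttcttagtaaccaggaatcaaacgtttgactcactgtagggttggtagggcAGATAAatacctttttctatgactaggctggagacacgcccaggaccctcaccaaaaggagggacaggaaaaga
The Epx window held 0 matches, and the Prg3, Il5ra and Il5 windows held 1 each, beginning 123, 74 and 72 bases before the start. Of 32851 promoter windows of the same length, 26.5% held at least 1 match. A match, or the lack of one, describes these letters only.

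Prg2 (probe set 10473399, chromosome 2) was highest in arthritic paws without peptide. Its log2 signal was 7.74 and 7.52 in CIA+MLIF paws, against 9.55 and 10.06 in CIA paws, and the arrays did not overlap. Without collagen the order was the opposite: 8.71 and 8.79 in adjuvant+MLIF paws, against 7.27 and 7.40 in adjuvant paws. The log2 change with peptide was -2.18 after collagen (4.52-fold lower) and 1.41 after adjuvant alone (2.67-fold higher), and the difference between the effects was -3.59. Among 28944 probe sets that difference ranked 1 from the lowest and the change in adjuvant mice ranked 1 from the highest, which is what the gene was chosen by. From high to low the group means ran CIA (9.81 ± 0.36), adjuvant+MLIF (8.75 ± 0.056), CIA+MLIF (7.63 ± 0.16) and adjuvant (7.34 ± 0.090; SD, n = 2 each). All 8 values lay above the control median of their array. The lowest pair in that order was also the closest, with 7.52 as the lower CIA+MLIF array and 7.40 as the higher adjuvant array.

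**Figure D1:**
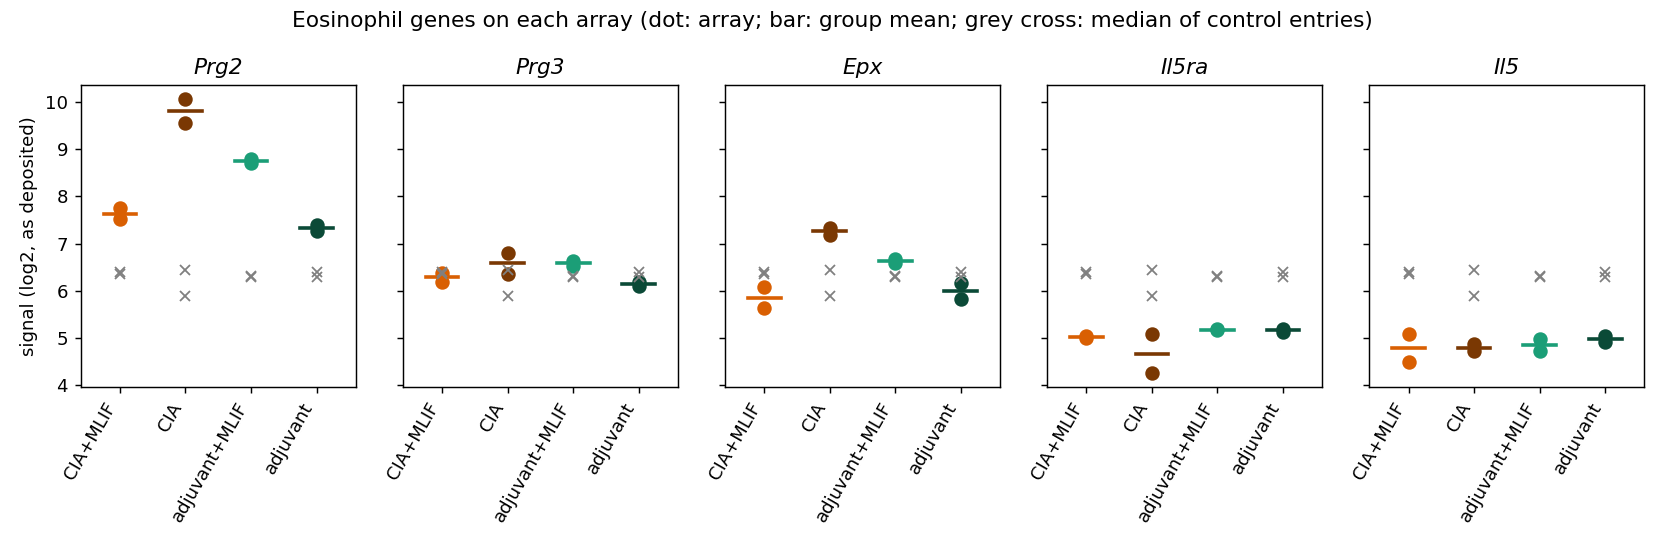
Log2 signal of the 5 eosinophil genes (vertical axis) on each of the 8 arrays, by group (horizontal axis); dots are arrays, bars group means of 2 arrays and grey crosses the median of the control entries on each array. Prg2 and Epx are highest in CIA and second in adjuvant+MLIF, and every Il5ra and Il5 value lies below the crosses.

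Epx, the peroxidase gene (probe set 10389654, chromosome 11), followed the same group order at the top. It had log2 signals of 6.07 and 5.64 in CIA+MLIF paws, against 7.18 and 7.33 in CIA paws. In mice without collagen it had 6.59 and 6.67 in adjuvant+MLIF paws, against 6.16 and 5.83 in adjuvant paws. Neither pair of groups overlapped, and CIA+MLIF lay below CIA without overlap for 10.9% of all probe sets. Epx fell with peptide after collagen (log2 change -1.40, SE 0.19, limma adjusted p = 0.00158), 2.64-fold lower. After adjuvant alone it was higher by 0.64 (SE 0.19), and this did not pass (unadjusted p = 0.00867, limma adjusted p = 0.588). The difference between the effects was -2.04 (SE 0.27, 95% interval -2.65 to -1.43, limma adjusted p = 0.00221), and it passed under each of the 16 alternatives run for it (adjusted p between 0.000364 and 0.0167).

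The means of Epx from high to low were 7.26 ± 0.11 in CIA, 6.63 ± 0.058 in adjuvant+MLIF, 5.995 ± 0.228 in adjuvant and 5.86 ± 0.31 in CIA+MLIF (SD, n = 2 each). The lowest 2 groups overlapped, and all 4 of their arrays lay below the control medians (between -0.71 and -0.24 relative to them), so the low end of the Epx changes, and with it their size, is not well determined. Against adjuvant, Epx rose in CIA (log2 change 1.26, SE 0.19, limma adjusted p = 0.00194). CIA+MLIF minus adjuvant+MLIF gave -0.77 (SE 0.19) and was not called (unadjusted p = 0.00281, limma adjusted p = 0.266).

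Prg3, the homologue of major basic protein (probe set 10473406), lies on chromosome 2 beside Prg2, with 1 gene model, Gm39868, between them in RefSeq. Its signal was close to the control medians throughout: 6.38 and 6.19 in CIA+MLIF paws, against 6.36 and 6.80 in CIA paws, and 6.53 and 6.63 in adjuvant+MLIF paws, against 6.18 and 6.10 in adjuvant paws. The collagen groups overlapped and the adjuvant groups did not, with adjuvant+MLIF above adjuvant without overlap for 31.7% of all probe sets. The changes had the signs of Prg2 at a smaller size, -0.30 (SE 0.18, limma adjusted p = 0.266) after collagen and 0.44 (SE 0.18, limma adjusted p = 1.00) after adjuvant alone. The difference between the effects was -0.73 (SE 0.25, 95% interval -1.30 to -0.16) and did not pass on the deposited scale (unadjusted p = 0.0174, limma adjusted p = 0.130). CIA minus adjuvant gave 0.44 (SE 0.18) and was not called (limma adjusted p = 0.117).

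Whether the difference between the effects passed for Prg3 depended on the scaling and on whether both CIA arrays were kept. After quantile normalization, which gives all arrays 1 distribution, Prg3 read 6.26 and 6.14 in CIA+MLIF, against 6.77 and 6.79 in CIA, and 6.44 and 6.55 in adjuvant+MLIF, against 6.08 and 6.03 in adjuvant. No pair then overlapped, and the difference between the effects passed (-1.02, limma adjusted p = 0.00144). It also passed after centring each array on its median (-0.96, limma adjusted p = 0.00366). With 1 CIA array left, the difference was -0.95 without CIA replicate 1 and -0.51 without CIA replicate 2. Without CIA replicate 2 the change of Prg3 after collagen was only -0.076, so that fit hardly showed the fall seen for Prg2. Probe sets of paralogues can share signal where their sequences are alike, and to what extent that of Prg3 also binds Prg2 RNA was not tested.

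Il5ra, the receptor chain specific to interleukin 5 (probe set 10546762, chromosome 6), lay between -1.62 and -1.11 relative to the control median on all 8 arrays. Its signal was 5.01 and 5.05 in CIA+MLIF paws, against 4.26 and 5.08 in CIA paws, and 5.18 and 5.18 in adjuvant+MLIF paws, against 5.20 and 5.14 in adjuvant paws. The groups of both pairs overlapped, and the one low value was that of CIA replicate 1. The difference between the peptide effects was 0.34 (SE 0.33, 95% interval -0.41 to 1.10, limma adjusted p = 0.578), of the other sign than that of Prg2. It was -0.064 (adjusted p = 0.769) without CIA replicate 1 and 0.75 (adjusted p = 0.00445) without CIA replicate 2, and so turned on which CIA array was kept.

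Il5, the growth factor itself (probe set 10376054, chromosome 11), lay between -1.86 and -1.16 relative to the control median of its array. It had 5.09 and 4.49 in CIA+MLIF paws, against 4.72 and 4.87 in CIA paws, and 4.72 and 4.97 in adjuvant+MLIF paws, against 5.05 and 4.92 in adjuvant paws. The arrays overlapped in both pairs. The difference between the effects was 0.13 (SE 0.30, 95% interval -0.54 to 0.80, limma adjusted p = 0.829). On no array did Il5 or Il5ra rise above the control median. At these signals a fall or a small change of either RNA could not be seen reliably, and the values do not show that there was none.

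Of the 4 members tested, 1 (Epx) passed for the difference between the peptide effects, where 7.24% of all probe sets were called (1.62% negative). Under quantile normalization 2 passed (Epx and Prg3), with 8.61% of all probe sets called positive and 8.79% negative, against 5.62% positive on the deposited scale. At an unadjusted p under 0.05 the count was also 2 (Epx and Prg3), beside 21.5% of all. For CIA+MLIF minus CIA, 1 of the 4 passed (Epx, lower) beside 14.7% of all probe sets (11.5% higher and 3.25% lower on the deposited scale, 11.5% higher and 13.0% lower after quantile normalization). At an unadjusted p it was again 1, beside 33.0% of all. In CIA minus adjuvant, 1 of the 4 passed (Epx, higher) beside 18.5% of all (4.30% higher and 14.2% lower, or 14.4% and 13.7% after quantile normalization), and 2 at an unadjusted p, Prg3 being the other, beside 35.3% of all. For adjuvant+MLIF minus adjuvant limma called none of the 4 (0) and none of the whole table (0%) after adjustment. At an unadjusted p under 0.05 it called 2 of the 4 (Epx and Prg3) beside 3.82% of all probe sets. With array weights 1440 probe sets passed, Epx and Prg3 among them. CIA+MLIF minus adjuvant+MLIF had 0 of the 4 passing beside 0.729% of all, and 1 at an unadjusted p (Epx) beside 4.70%. Both CIA+MLIF arrays below both CIA arrays together with both adjuvant+MLIF arrays above both adjuvant arrays, the pattern of Prg2, held for Epx and for 5.05% of all probe sets, and together with a call for the difference for Epx and 1.14%. After quantile normalization it held for Epx and Prg3 and for 11.8% of all.

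**Figure D2:**
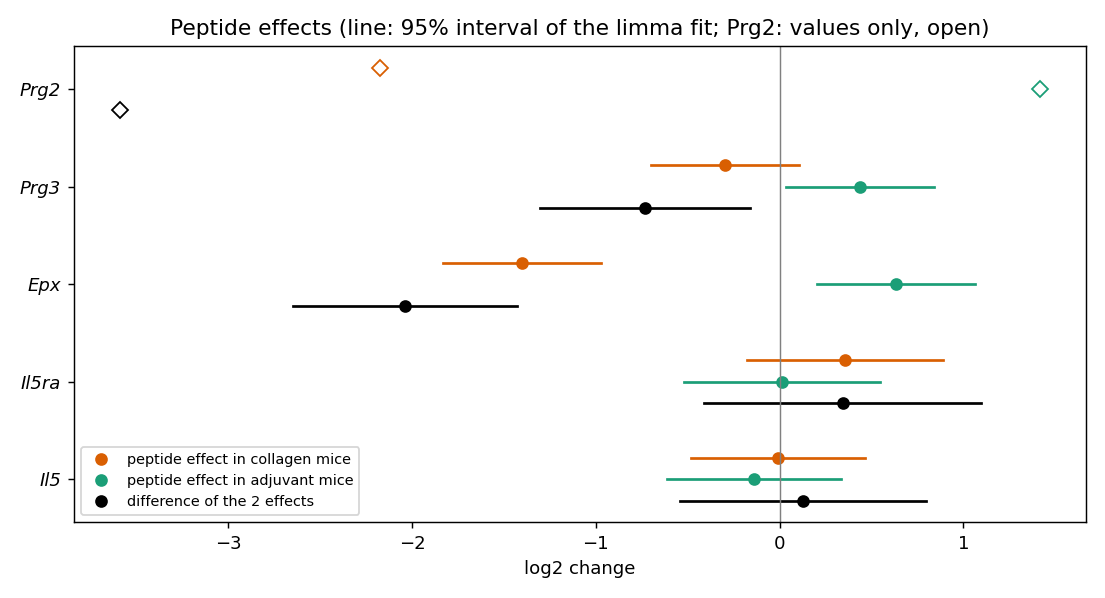
Log2 change with peptide in collagen mice, in adjuvant mice and the difference between the effects (horizontal axis) for each gene (vertical axis); lines are 95% intervals of the limma fit, and open diamonds are the untested values of Prg2. The interval of the difference lies wholly below 0 for Epx and Prg3 and spans 0 for Il5ra and Il5, although Prg3 did not pass after adjustment over all probe sets.

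The peptide effects of all probe sets place the members in the whole array. Epx ranked 124 from the lowest in CIA+MLIF minus CIA and 52 from the highest in adjuvant+MLIF minus adjuvant. Prg3 ranked 2524 from the lowest and 288 from the highest in these comparisons, which use different arrays. Il5ra and Il5 stood in the dense middle, at 18480 and 6976 from the lowest after collagen.

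**Figure D3:**
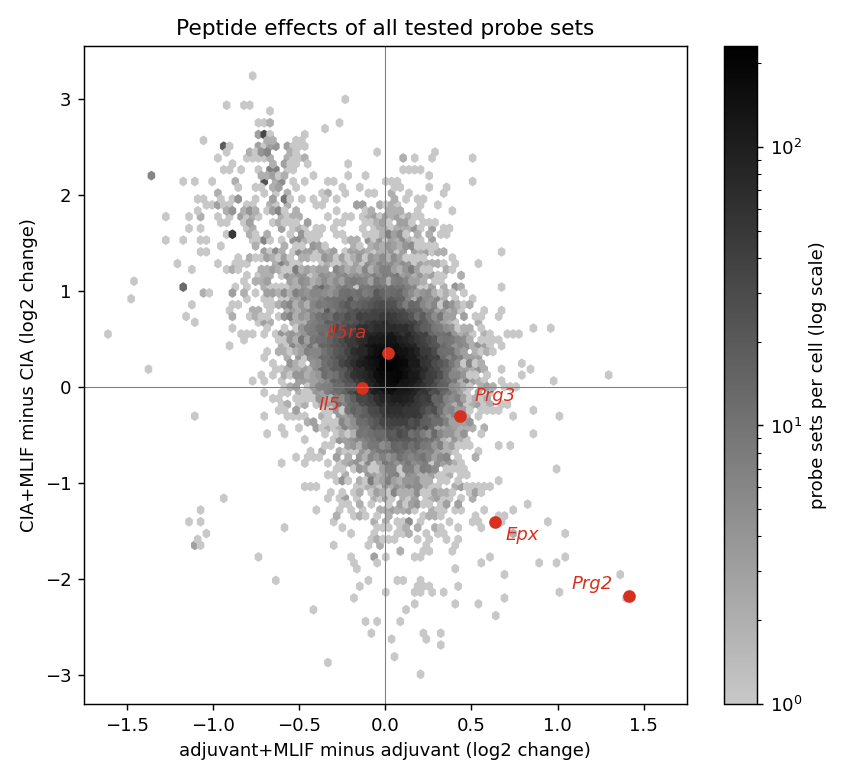
Peptide effect in adjuvant mice (horizontal axis, log2 change) against peptide effect in collagen mice (vertical axis, log2 change) for 28944 probe sets, with shading for the number of probe sets per cell on a log scale and the 5 members in red. Prg2 is at the lower right edge at 1.41 and -2.18, Epx lies towards it at 0.64 and -1.40, and Il5ra and Il5 lie in the dense centre.

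Other genes of the eosinophil pathway were taken from lists by role (granule RNases, receptors, growth factors and chemokines, type 2 cytokines, lineage transcription factors and lipid mediator enzymes), 40 measured of 44 listed beside the members. For the difference between the peptide effects 2 were positive and 2 negative among those that passed, and the median of the 40 was -0.05, against 0.21 over all probe sets. Over all probe sets 5.62% were called positive and 1.62% negative, shares that also apply to the lists below. After quantile normalization 3 were positive and 10 negative (median -0.28, against -0.04 over all), beside 8.61% and 8.79% of all probe sets. With the adjuvant+MLIF arrays averaged as 1 array, the counts were 0 and 1. The pattern of Prg2, with neither pair overlapping, held for 2 of the 40 (Ear6 and Alox15, the first named after its values were seen), a share near the 5.05% of all probe sets. Ear6 did not pass for the difference (-0.86, limma adjusted p = 0.102). On every array outside the CIA group Ear6 lay below the control median, so its order in the adjuvant pair is not well determined.

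Of the 5 granule genes measured beside Prg2, 2 (Epx and Rnase2b) passed for the difference, both negative, and 4 did without CIA replicate 1 or after quantile normalization. Rnase2b, a member of the eosinophil-associated family, had 5.88 and 5.79 in CIA+MLIF, against 7.52 and 8.24 in CIA, and 5.08 and 5.05 in adjuvant+MLIF, against 5.06 and 5.34 in adjuvant. It fell with peptide after collagen (-2.04, SE 0.23, limma adjusted p = 0.000562), and its adjuvant groups overlapped (-0.14). All 6 of its arrays outside the CIA group lay below the control medians, so the size of these changes is not well determined. Rnase2a of the same family rose with peptide after collagen (1.07, limma adjusted p = 0.00311), at 7.02 and 7.06 in CIA+MLIF, against 5.81 and 6.14 in CIA. Without collagen it was also higher with peptide, though not called (0.68, limma adjusted p = 0.398), at 6.80 and 6.94 in adjuvant+MLIF, against 6.11 and 6.28 in adjuvant. The difference between its effects was 0.39 (limma adjusted p = 0.372), and on 4 arrays it lay below the control median. These RNase genes are close paralogues in the mouse, and how far their probe sets share signal was not tested.

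Of 11 receptor genes measured, Il5ra included, 0 passed for the difference between the effects, beside 7.24% of all probe sets. After quantile normalization 3 did, all negative, beside 8.79% negative over all probe sets. Csf2rb, the beta chain that pairs with Il5ra, fell with peptide after collagen (-0.97, SE 0.17, limma adjusted p = 0.00551), as did its mouse paralogue Csf2rb2 (-0.51, SE 0.14, limma adjusted p = 0.0458). Csf2rb passed after collagen under 15 of 17 alternatives, not with array weights or without CIA+MLIF replicate 1. Csf2rb2 passed under 7 of 17, and its call ended without any single array outside the CIA group. Both beta chains also serve other granulocytes and macrophages. Siglecf and Ccr3, a lectin and the eotaxin receptor that mark mature mouse eosinophils, did not pass after collagen on the deposited scale (-0.02, limma adjusted p = 0.949, and -0.53, limma adjusted p = 0.289), and are named although the naming rule does not take them, after their values were seen. Ccr3 had 6.22 and 6.39 in CIA+MLIF, against 6.19 and 7.48 in CIA. After quantile normalization it read 6.10 and 6.33 in CIA+MLIF, against 6.61 and 7.43 in CIA, with no overlap, and it passed after collagen (-0.80, limma adjusted p = 0.0382) but not for the difference between the effects (-0.89, limma adjusted p = 0.103). Ccr3 passed after collagen under 4 of 17 alternatives, and its value was 0.12 without CIA replicate 2. Siglecf passed under none of 17 (0), with -0.26 (limma adjusted p = 0.0993) after quantile normalization.

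Among 6 growth factors and chemokines, Ccl24, eotaxin 2, moved opposite to Prg2 after collagen: 7.76 and 7.92 in CIA+MLIF, against 6.33 and 6.68 in CIA (1.34, SE 0.19, limma adjusted p = 0.00208). It was nearly level in the adjuvant pair (0.17), and the difference between the effects passed (1.17, limma adjusted p = 0.0331). That call held under 9 of 16 alternatives and ended with the adjuvant+MLIF arrays averaged (limma adjusted p = 0.136), with array weights, and without either CIA+MLIF array, either adjuvant+MLIF array or adjuvant replicate 2. Of the 4 lipid mediator enzymes, Alox15, a lipoxygenase of eosinophils and macrophages, fell with peptide after collagen (-0.87, SE 0.14, limma adjusted p = 0.00418). It was 0.26 higher with peptide without collagen, with a difference of -1.14 (limma adjusted p = 0.00896). The call of the difference held under 11 of 16 alternatives and ended with the adjuvant+MLIF arrays averaged (limma adjusted p = 0.0798) and without any 1 of the 4 arrays of mice given no collagen. Its signals were 7.15 and 6.99 in CIA+MLIF, against 7.98 and 7.90 in CIA, and 7.52 and 7.45 in adjuvant+MLIF, against 7.23 and 7.22 in adjuvant. Ltc4s and Alox5, enzymes of leukotriene synthesis, rose with peptide after collagen (1.18, limma adjusted p = 0.00207, and 0.75, limma adjusted p = 0.0101). The Alox5 call ended with array weights, in a fit of only CIA+MLIF and CIA, and without either CIA+MLIF array. For Ltc4s the difference between the effects (1.02, limma adjusted p = 0.0340) passed under 9 of 16 alternatives, not with the adjuvant+MLIF arrays averaged (limma adjusted p = 0.174) or without any single array outside the CIA group.

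Of 7 type 2 cytokine and alarmin genes, 0 passed for the difference (2 after quantile normalization), and after collagen Gata3 fell (-0.83, limma adjusted p = 0.0214), a call that ended with array weights, in a fit of only CIA+MLIF and CIA, and without either CIA+MLIF array. Il9 had a change of 0.56 (limma adjusted p = 0.0492) that passed under 3 of 16 alternatives and was 0.11 (limma adjusted p = 0.482) after quantile normalization, and all 8 of its values lay below the control medians. Of 11 lineage transcription factors 0 passed for the difference (2 after quantile normalization), and Runx1 fell after collagen (-0.59, limma adjusted p = 0.0252). The Runx1 call held under 8 of 17 alternatives, with a limma adjusted p of 0.00550 after quantile normalization and 0.0866 with the adjuvant+MLIF arrays averaged, and ended without any single array outside the CIA group.

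Likeness to Prg2 was measured as the Pearson correlation of log2 signals over the 8 arrays, which share their groups and their scaling, and it is given as a description. Among 15466 probe sets with 1 symbol and a signal reaching the control median, Epx ranked 28 (r = 0.956) and Prg3 757 (r = 0.833). Il5ra and Il5 had r = -0.43 and r = -0.16. The 8 genes most like Prg2, members aside, were Igkv10-96 (r = 0.991), Slc2a3 (0.990), Camp (0.986), Ngp (0.979), Fcnb (0.979), Slc39a7 (0.978), Atraid (0.976) and Lcn2 (0.974). Camp, Ngp and Lcn2 encode proteins of neutrophil granules, Fcnb a ficolin of myeloid cells, Igkv10-96 an immunoglobulin light chain segment and Slc2a3 a glucose transporter.

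Genes of the marrow stages of other granulocytes moved with Prg2 and Epx. All 12 marrow myeloid precursor genes measured had the pattern of Prg2 with neither pair overlapping, beside 5.05% of all probe sets, and 11 of 12 were called negative for the difference between the effects (12 after quantile normalization). The median difference of these 12 was -2.01, against 0.21 over all probe sets. Mpo, the peroxidase of neutrophils and a paralogue of Epx, had 7.43 and 7.42 in CIA+MLIF, against 8.74 and 9.19 in CIA, and 7.71 and 7.65 in adjuvant+MLIF, against 6.99 and 6.90 in adjuvant. The difference between its effects was -2.28 (SE 0.25, limma adjusted p = 0.000802). How far the probe sets of Mpo and Epx share signal was not tested. Ngp read 9.15 and 9.18 in CIA+MLIF, against 10.94 and 11.05 in CIA, and 9.85 and 9.87 in adjuvant+MLIF, against 9.05 and 8.85 in adjuvant (difference -2.74, limma adjusted p = 0.000112). Ltf, which encodes lactoferrin, had a difference of -2.81 (limma adjusted p = 0.000483).

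The mean log2 signal of the precursor list was 7.41 in both CIA+MLIF paws, against 8.57 and 8.85 in CIA, and 7.72 and 7.78 in adjuvant+MLIF, against 7.14 and 7.16 in adjuvant. All 9 genes of the neutrophil list also had the pattern with neither pair overlapping and were called negative for the difference, with a median of -2.47. Their mean was 7.30 and 7.33 in CIA+MLIF, against 9.03 and 9.32 in CIA, and 7.68 and 7.70 in adjuvant+MLIF, against 7.04 and 7.29 in adjuvant. The part of neutrophils, or of marrow in the excised paws, in the changes of Prg2 and Epx was not tested.

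**Figure D4:**
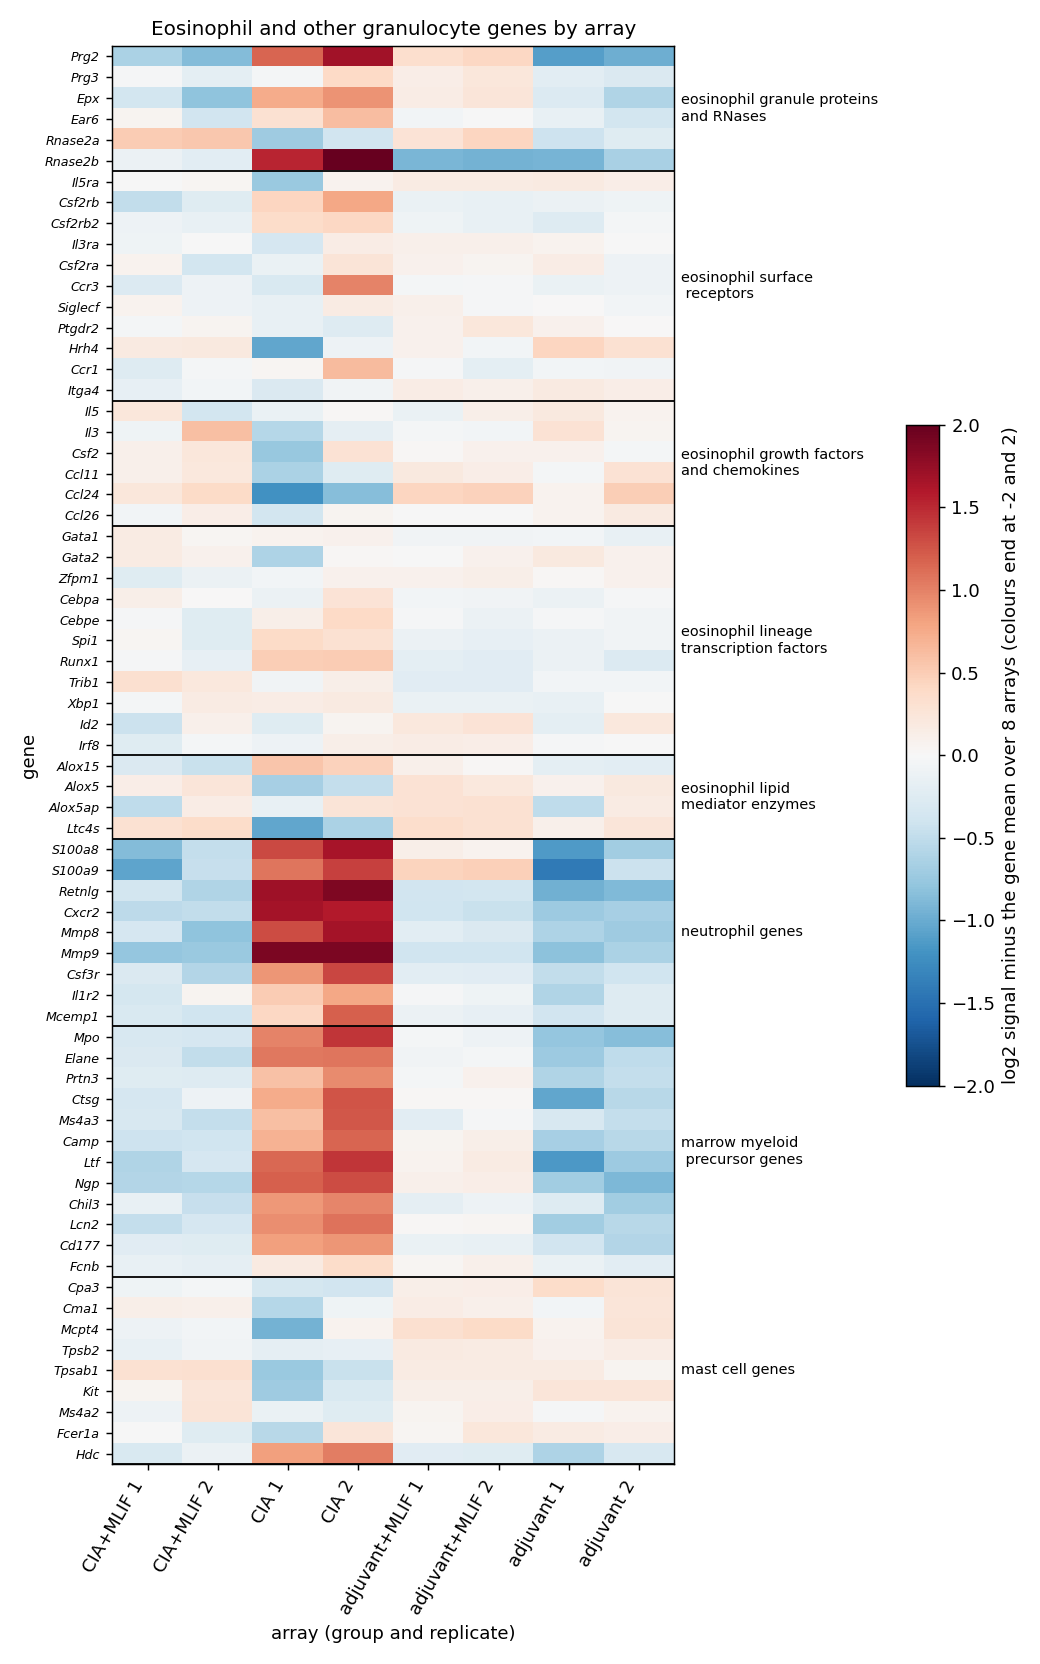
Log2 signal minus the gene's mean over the 8 arrays (colour, red above and blue below) for genes of 8 lists (rows) on each array (columns). Prg2, Epx, the neutrophil and the marrow precursor genes are red in CIA, while the eosinophil receptors and transcription factors are mostly pale and Ccl24 and Ltc4s are blue in CIA.

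The mast cell, basophil, red cell, macrophage and T cell lists had 1 or 2 members called each for the difference, beside 7.24% of all probe sets. After quantile normalization the mast cell list had 2 positive and 1 negative, the macrophage list 1 and 4, and the 3 others 2 negative each. Over all probe sets 8.61% were then positive and 8.79% negative. With the adjuvant+MLIF arrays averaged, 1 mast cell gene (negative) and 0 of the other 4 lists were called. Of 9 mast cell genes, 1 passed for the difference, Hdc, the histamine-forming enzyme (-1.36, limma adjusted p = 0.00761), and the list mean ranged from 7.36 to 7.44 in CIA+MLIF, against 7.01 to 7.36 in CIA. The basophil proteases Prss34 (-1.17, limma adjusted p = 0.0240) and Mcpt8 (-1.11, limma adjusted p = 0.0536) had negative differences, and 1 of 6 basophil genes passed. Prss34 lay below the control median on 3 arrays and Mcpt8 on 6. Of 5 red cell precursor genes measured of 9 listed, 1 passed, Car1, a carbonic anhydrase (-1.34, limma adjusted p = 0.00854). Their mean was 6.67 on both CIA+MLIF arrays, against 6.75 to 7.27 in CIA, and 6.86 on both adjuvant+MLIF arrays, against 6.70 to 6.79 in adjuvant. Of 10 macrophage genes, Cd163, a scavenger receptor, was positive (1.30, limma adjusted p = 0.00853) and Mpeg1, a pore-forming protein, negative (-1.32, limma adjusted p = 0.00955). Of 6 T cell genes, 1 was negative, Cd3g of the antigen receptor complex (-1.03, limma adjusted p = 0.0139), and it lay below the control median on 4 arrays.

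Marker genes of skin, muscle and fat also differed with the groups. Of 7 epidermal genes 5 were negative and 0 positive for the difference between the effects, beside 1.62% negative over all probe sets, and 1 was negative with the adjuvant+MLIF arrays averaged. Their mean log2 signal was 10.72 to 10.83 in CIA+MLIF, against 11.68 to 11.95 in CIA, and 5.91 to 5.94 in adjuvant+MLIF, against 5.81 to 5.88 in adjuvant. Krt2, Krtdap and Lor of this list lay below the control medians on the 4 arrays of mice given no collagen, so a peptide effect there is not well determined. Of 9 skeletal muscle genes 6 were positive, beside 5.62% of all probe sets, 9 after quantile normalization and 4 with the adjuvant+MLIF arrays averaged. The muscle mean was 12.24 to 12.53 in CIA+MLIF, against 10.68 to 10.99 in CIA, and 12.51 on both adjuvant+MLIF arrays, against 12.34 to 12.55 in adjuvant. Of 5 adipocyte genes 3 were positive, also with the adjuvant+MLIF arrays averaged, and 4 after quantile normalization. The muscle means of adjuvant+MLIF and adjuvant overlapped, and the epidermal means did not. Those epidermal means all lay below the control medians of their arrays, so their order is not well determined. For 31.7% of all probe sets adjuvant+MLIF lay above adjuvant without overlap. All 7 epidermal genes were called higher in CIA minus adjuvant (median 6.12), beside 4.30% of all probe sets. In CIA+MLIF minus adjuvant+MLIF all 7 were also called higher (median 4.92), beside 0.729% of all probe sets called in either direction. The part of skin, muscle and fat was not tested for any change of Epx, the difference between the effects and CIA minus adjuvant included.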

How the data were processed

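Per the labels' protocols, 300 ng of RNA carried biotin onto Mouse Gene 1.0 ST arrays (Affymetrix). The authors deposited 1 table of log2 signals, the unit being read from the values. For its software and normalization, the sources used here give no name. Of 35557 entries, 6613 were taken as controls and 28944 were tested with no filter; the platform annotation gives 21789 of them 1 symbol, 1621 several and 5534 none here. A single fit of the 4 group means with limma (version 3.58.1, under R version 4.3.3) had 4 residual plus 4.96 prior degrees of freedom. It gave 5 comparisons, with two-sided p-values, the Benjamini-Hochberg method applied across the tested probe sets and a threshold of 0.05. The difference between the peptide effects is the interaction, (CIA+MLIF minus CIA) minus (adjuvant+MLIF minus adjuvant). The fit was tested on simulated data.

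The members and the 16 lists (132 genes, 120 measured) were chosen with earlier results of these data known. Named were the members, at most 4 genes per list that passed for the interaction or a peptide comparison (largest interaction first) and the 8 genes most like Prg2, clone and model names left out. Exceptions are marked in the text. Promoters came from RefSeq (GRCm38.p6). Alternatives were quantile normalization, centring, no probe sets of the lowest tercile, trend with robust variance, weights per array, fits restricted to each pair, the replicate number as a block, unadjusted p-values, each array left out in turn and the adjuvant+MLIF arrays averaged. Quantile normalization without CIA replicate 1, list counts without that array or with adjuvant+MLIF averaged, and all alternatives for the named list genes were added after the data were seen. Python version 3.11.15 with Matplotlib version 3.10.9 drew the figures.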

Additional observations from a re-analysis of the deposited data

Results flagged for a closer look

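The peptide effect differed between collagen and adjuvant mice by the interaction test (limma, adjusted over all probe sets) for Epx, by -2.04 on the log2 scale. For Prg2 the difference was -3.59, not tested here because the gene was chosen for it, with both arrays of each group moving opposite ways. Other eosinophil-related genes whose difference passed were Rnase2b (-1.90), Alox15 (-1.14), Ccl24 (1.17) and Ltc4s (1.02). Among neutrophil genes the differences were -3.35 for S100a9, -3.16 for S100a8, -2.97 for Mmp9 and -2.81 for Retnlg. Marrow precursor genes gave -2.81 for Ltf, -2.74 for Ngp, -2.28 for Mpo and -2.08 for Lcn2. Hdc gave -1.36, Prss34 -1.17 and Car1 -1.34. Macrophage and T cell genes gave 1.30 for Cd163, -1.32 for Mpeg1 and -1.03 for Cd3g. With the adjuvant+MLIF arrays averaged as 1 array, the calls of Alox15, Ccl24, Ltc4s, Prss34, Car1, Cd163, Mpeg1 and Cd3g ended, while those of Epx, Rnase2b, Hdc and the 8 neutrophil and marrow precursor genes named here passed. Of 16 alternatives, 14 kept the call of Hdc (not without CIA+MLIF replicate 1 or adjuvant replicate 1), 13 that of Car1, 12 of Cd163, 11 of Mpeg1, and 9 each of Prss34 and Cd3g.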

How the results depend on the processing

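Of the 4 tested members, 1 passed for the difference between the peptide effects; 2 passed after centring, after quantile normalization with all arrays or without CIA replicate 1, and at an unadjusted p. Leaving out each array gave 1 to 3 (2 without CIA replicate 1, 3 without CIA replicate 2). For CIA+MLIF minus CIA the count of 1 became 2 after centring and after quantile normalization with all arrays or without CIA replicate 1, and 1 to 2 with an array left out (2 without either CIA array). For CIA minus adjuvant it became 2 under those settings and at an unadjusted p, and 1 to 2 with an array left out (2 without either CIA array). For adjuvant+MLIF minus adjuvant the 0 became 2, and for CIA+MLIF minus adjuvant+MLIF the 0 became 1, with array weights and at an unadjusted p. Epx passed for the difference under all 16 alternatives (-2.29 to -1.82), and Prg2 kept its signs. Prg3 passed for it under 5 of 16: -0.96 after centring, -1.02 after quantile normalization, -1.003 after it without CIA replicate 1, and -0.95 and -0.51 without CIA replicate 1 or 2.

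For Il5ra the difference was -0.18 after quantile normalization and -0.27 after it without CIA replicate 1, and -0.064 to 0.75 with an array left out. Its CIA+MLIF minus CIA value was -0.13 and -0.21 under those 2 settings and -0.050 to 0.76 with an array left out. CIA minus adjuvant was 0.071 for it after quantile normalization without CIA replicate 1 and -0.90 to -0.089 with an array left out. Without CIA replicate 2, Il5ra passed for the difference (0.75, limma adjusted p = 0.00445), CIA+MLIF minus CIA (0.76, limma adjusted p = 0.00107) and CIA minus adjuvant (-0.90, limma adjusted p = 0.000505). Its adjuvant+MLIF minus adjuvant value was -0.016 to 0.044 with an array left out. For Il5 the difference was -0.10 after centring, -0.37 after quantile normalization and -0.14 after it without CIA replicate 1, and -0.17 to 0.43 with an array left out. Its CIA minus adjuvant value was 0.030, 0.27 and 0.038 under those 3 settings. With an array left out, its CIA+MLIF minus CIA was -0.31 to 0.29 and its CIA+MLIF minus adjuvant+MLIF -0.36 to 0.24. The cause was not tested. Both lie in the lowest tercile of signal and had no value once it was left out, and the interaction needs all groups, so it had no pairwise fit.

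Same-numbered arrays correlated in their deviations at -0.11 to 0.39, the highest value being that of CIA+MLIF with adjuvant. A deviation shared by replicate number in those groups is therefore possible, its source was not tested, and the main fit does not pair the arrays. With the replicate number as a block the difference for Epx was -2.04 (limma adjusted p = 0.00363), for Prg3 -0.73 (adjusted p = 0.149), for Il5ra 0.34 (adjusted p = 0.558) and for Il5 0.13 (adjusted p = 0.831), and no call of a member changed. Counts over all probe sets ran from 1050 (adjuvant+MLIF averaged) to 13063 (without CIA replicate 2) for the difference, against 2095. They ran from 1261 (array weights) to 17353 (without CIA replicate 2) for CIA+MLIF minus CIA, against 4257, and from 1987 (array weights) to 17706 (without CIA replicate 2) for CIA minus adjuvant, against 5353. For CIA+MLIF minus adjuvant+MLIF they ran from 128 (without CIA+MLIF replicate 2) to 660 (array weights), against 211, and for adjuvant+MLIF minus adjuvant from 0 to 1440 (array weights). A group left with 1 array is assumed to vary like the others. Signals near or below the control medians limit Prg3, Il5ra, Il5, Il9 and the low ends of Epx and Rnase2b. They also limit other genes with arrays below the control medians. These were Mcpt8 (6 arrays), Rnase2a, Cd3g, Krt2, Krtdap and Lor (4 each), Prss34 (3), and Retnlg and Ccr3 (2 each). Ear6 also lay below the control medians, on every array outside the CIA group.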
